A study of Mus musculus with 14 samples.

Results

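The 8 late myelin genes described here are Mog, Mobp, Mal, Opalin, Aspa, Apod, Trf and Hapln2, taken by gene symbol from the 23427 genes of the expression table and followed across all 7 groups of 14 RNA-seq libraries. They were selected on measured values, because Mobp and Mog were known to differ strongly between the 2 non-targeting siRNAs, so the comparison of those siRNAs is given below as a description with no test. The cells were oligodendrocyte precursor cells (OPCs) of wild-type C57BL/6J mice, purified by immunopanning with an antibody against the PDGF receptor alpha from the pooled cortices of several pups. OPCs divide in the presence of PDGF, and they become oligodendrocytes (OLs), the myelin-forming glia of the central nervous system, once the growth factor is withdrawn and thyroid hormone is added. One group was harvested at Day0. The other 6 groups were harvested at Day3 and were non-treated, mock transfected, given a control siRNA that targets no gene (NC siRNA #1 or NC siRNA #2), or given an siRNA against Secisbp2l (siSbp2l) or against Pdgfra (siPdgfra). Each group held 2 libraries, described as independent replicates of cultured cells. The errors below thus measure the spread between libraries within groups, pooled over the groups fitted. Whether the 2 replicates came from separate pools of pups is not given in the sources used here.

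Myelin is laid down in a sequence. Differentiating OLs first make the abundant structural proteins such as Mbp and Cnp, and proteins that sit on the outer face of the sheath or at the node of Ranvier are usually detected later. Mog is a glycoprotein of the outermost myelin lamella and Mobp is a basic protein of the compacted sheath. Opalin is a sialylated membrane glycoprotein of OLs, Mal is a proteolipid that sorts cargo into lipid rafts, Trf (transferrin) carries iron, Apod (apolipoprotein D) is a lipocalin that binds small lipids, Hapln2 is a link protein of the matrix at nodes of Ranvier, and Aspa (aspartoacylase) splits N-acetylaspartate into aspartate and acetate.

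In the mm10 annotation of the deposited table, Mog lies on the minus strand of chromosome 17 from 37010740 to 37023398 and Mobp on the plus strand of chromosome 9 from 120149742 to 120176091. Opalin (chromosome 19, 41063420 to 41077113), Mal (chromosome 2, 127633226 to 127656695), Aspa (chromosome 11, 73304988 to 73324637), Apod (chromosome 16, 31296192 to 31314596), Trf (chromosome 9, 103208876 to 103230286) and Hapln2 (chromosome 3, 88021750 to 88027511) are all on the minus strand. RefSeq promoters on GRCm38.p6 were found for 7 of the 8 genes (all but Trf), and the 250 bases before the start are printed for Mobp and Mog, which were both low under siSbp2l, and for Opalin, which was not low under NC siRNA #2. Capitals mark matches, on either strand, to the letters of a SOX factor (ACAAAG or ACAATG), of MYRF (CTGGCAC or CTGGTAC) and of an E-box (CAGCTG or CATCTG), and each sequence runs 5′ to 3′ on the strand of its gene.
Mobp, chr9:120149492-120149741, plus strand: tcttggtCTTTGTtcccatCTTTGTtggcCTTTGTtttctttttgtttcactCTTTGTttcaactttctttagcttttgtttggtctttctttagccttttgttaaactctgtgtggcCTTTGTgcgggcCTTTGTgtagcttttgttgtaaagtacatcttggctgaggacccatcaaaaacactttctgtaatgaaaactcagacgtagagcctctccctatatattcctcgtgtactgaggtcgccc
Mog, chr17:37023399-37023648, minus strand: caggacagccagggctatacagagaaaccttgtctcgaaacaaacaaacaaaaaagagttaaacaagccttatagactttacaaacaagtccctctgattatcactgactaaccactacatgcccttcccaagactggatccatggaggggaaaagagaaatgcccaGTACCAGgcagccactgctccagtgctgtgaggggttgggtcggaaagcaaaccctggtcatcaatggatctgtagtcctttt
Opalin, chr19:41077114-41077363, minus strand: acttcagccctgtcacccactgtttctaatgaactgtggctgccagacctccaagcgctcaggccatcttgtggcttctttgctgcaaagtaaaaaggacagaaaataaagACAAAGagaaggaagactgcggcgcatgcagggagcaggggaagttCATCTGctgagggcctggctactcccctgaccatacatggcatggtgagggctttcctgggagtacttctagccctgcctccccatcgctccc
The Mobp window held 6 SOX matches, all of them ACAAAG on the strand opposite to the gene, and it was the 1 window of the 32851 RefSeq promoter windows searched (0.00304%) with that many; this count was singled out after its value was seen. The Mog window held no SOX match and 1 MYRF match on the opposite strand. The Opalin window held 1 SOX match and 1 E-box match. SOX letters were found in 4 of the 7 members' windows and in 25.2% of all windows, MYRF letters in 2 of 7 and in 5.93%, and E-box letters in 4 of 7 and in 25.5%. TCF/LEF letters (CTTTGAA or CTTTGAT) were found in 0 of 7 and in 7.48% of all windows. Only CTTTGAA and CTTTGAT were searched for here, so the 0 of 7 does not cover other runs that begin with CTTTG. On the opposite strand ACAAAG reads CTTTGT, which shares its first 5 letters with the TCF/LEF letters. A match is a run of letters in the window and nothing was measured on binding.

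Expression is given as deposited, in FPKM, the number of fragments scaled to exon length and to all mapped fragments, and gene levels can be compared on this scale because it divides by exon length. Low values were whole multiples of 1 fragment for 88.7% to 92.5% of the low values of genes with 1 transcript (within 0.1 fragment), which put the depth at 18481355 to 31620143 fragments in 13 of the libraries and at 6560681 in replicate 2 of NC siRNA #2. The 2 non-treated libraries differed from each other more than any other pair, with 252 genes over 2-fold apart against 7 to 21 in the other groups, and the results below say where a call changes without them. The targets were low where they were targeted. Secisbp2l was at 3.91 and 3.82 FPKM in siSbp2l against 135 to 255 FPKM in the 8 Day3 control libraries. Pdgfra was at 3.30 and 2.69 FPKM in siPdgfra against 32.4 to 72.1 FPKM in those controls. Oligodendrocyte lineage markers (Olig1, Olig2 and Sox10) summed to between 580.5 and 1675 FPKM in the 14 libraries, whereas all 6 microglial, all 4 endothelial and all 5 fibroblast and pericyte markers stayed under 1 FPKM in every library. Other glial and neuronal genes were not absent: Gfap reached 79.2 FPKM and Tubb3 273 FPKM, while Aqp4 and Stmn2 stayed under 1 FPKM. In bulk cultures fewer cells of a type and less RNA per cell cannot be told apart.

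Differences are given below as differences of log2(FPKM + 1) with the standard error (SE) from limma, and a gene was called higher or lower at a Benjamini-Hochberg adjusted p under 0.05, over all genes tested, and a difference of 2-fold or more on that scale. The added 1 shrinks the differences of genes near 1 FPKM. Genes entered the test when at least 2 of the libraries fitted reached 1 FPKM. Aspa did not pass this filter and 7 of the 8 genes did. Of those, Mog, Mobp, Mal and Hapln2 were at or near 0 at Day0 and passed only through Day3 groups in which they were higher. The filter thus favoured a rise from Day0 for them. Counts over the 7, and the adjusted p-values of these genes against Day0, are therefore a description of the genes tested.

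**Figure D1:**
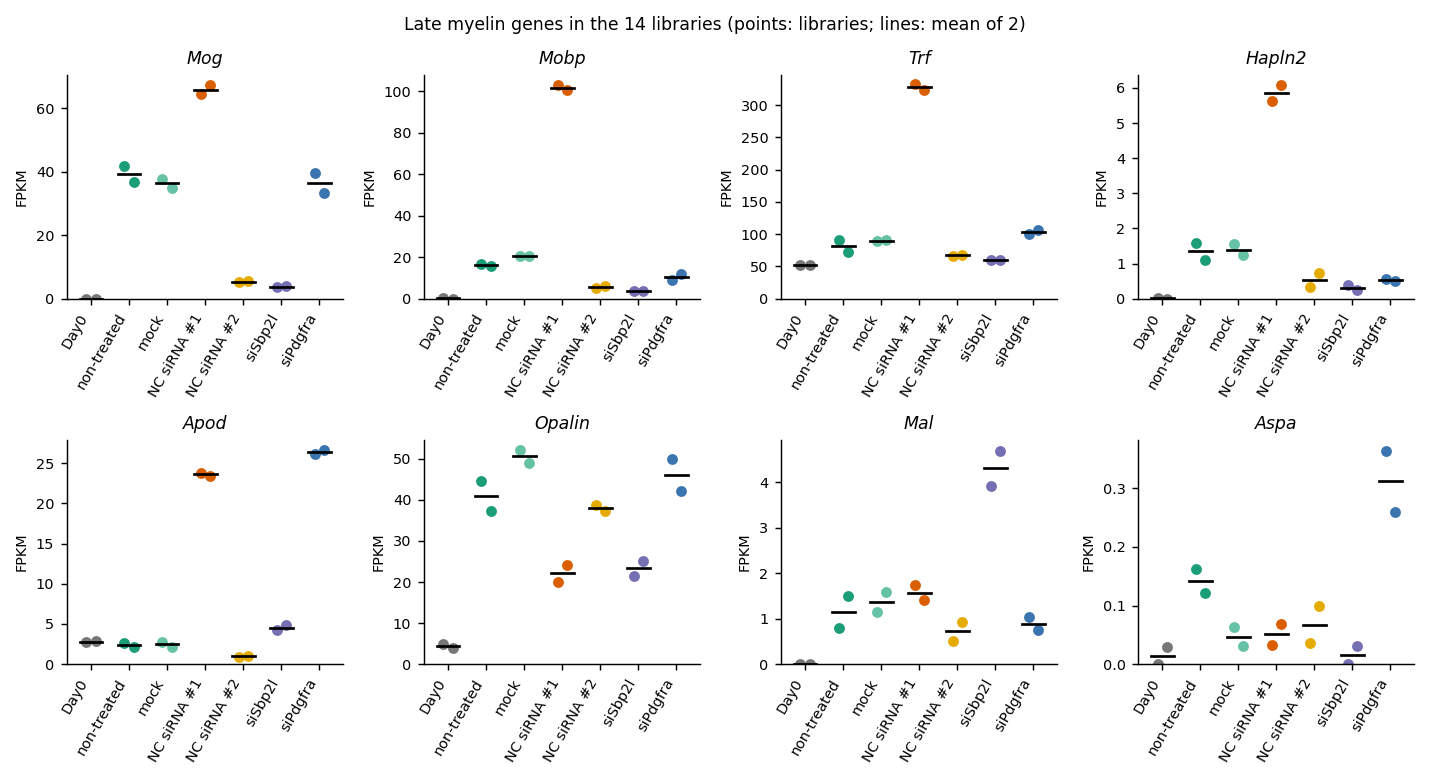
FPKM of each of the 8 genes (vertical axes, linear from 0 and different for each gene) in the 7 groups (horizontal axes); points are libraries and lines are the mean of 2. Mog and Mobp were near 0 at Day0, highest in NC siRNA #1 and low in both NC siRNA #2 and siSbp2l, whereas Mal was highest in siSbp2l and Aspa stayed under 0.4 FPKM.

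The genes were first followed through differentiation, by comparing Day3 non-treated cells with Day0. Of the 7 genes tested, 5 rose (Mog, Mobp, Opalin, Hapln2 and Mal), and none was called lower. Over all 11874 genes tested, 11.4% were called higher and 15.2% lower. For Mog, Mobp, Hapln2 and Mal the filter favoured that rise. The median difference of the 7 genes was 1.20 on the log2(FPKM + 1) scale against -0.12 over all genes tested. Apod and Trf, the lipocalin and the iron carrier, were not called.

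Mog had 0.0556 and 0.0781 FPKM at Day0, which corresponds to 3 fragments in each library, and 41.9 and 36.7 FPKM in non-treated cells at Day3. It was therefore all but undetected in OPCs, and the groups did not overlap (difference 5.24 ± 0.10 SE on the log2(FPKM + 1) scale, adjusted p = 2.81e-11). Mobp had 0.157 and 0.104 FPKM at Day0 and 17.0 and 15.9 FPKM at Day3 (difference 3.95 ± 0.12 SE, adjusted p = 4.92e-10). Opalin was already present in OPCs, at 4.79 and 3.89 FPKM, and reached 44.6 and 37.3 FPKM at Day3 (difference 2.97 ± 0.14 SE, adjusted p = 8.51e-09). It was the most abundant of the 3 OL membrane and sheath genes at Day0, and at Day3 its non-treated libraries overlapped those of Mog.

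Hapln2, the nodal link protein, had 0.0308 and 0 FPKM at Day0, or 2 and 0 fragments, against 1.60 and 1.09 FPKM at Day3 (difference 1.20 ± 0.14 SE, adjusted p = 1.72e-05). Mal was also at the floor in OPCs, with 0.0121 and 0 FPKM, and had 0.789 and 1.49 FPKM at Day3 (difference 1.07 ± 0.18 SE, adjusted p = 0.000268). Both remained close to 1 FPKM, so their differences depend on the added 1 more than those of Mog and Mobp do. Without replicate 2 of the non-treated cells the Mal difference was 0.83 and the call was lost. Aspa had 0 and 0.0289 FPKM at Day0 and 0.162 and 0.122 FPKM at Day3, that is 0 to 5 fragments a library.

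Trf started high, at 52.8 and 52.3 FPKM in OPCs, and had 90.5 and 73.1 FPKM at Day3. Its difference of 0.62 ± 0.10 SE passed the adjusted p (0.000223) and fell short of 2-fold. Apod had 2.72 and 2.84 FPKM at Day0 and 2.57 and 2.16 FPKM at Day3 (difference -0.17 ± 0.11 SE, adjusted p = 0.208). With the mock libraries in place of the non-treated ones the same 5 genes were called, with differences of 5.13 for Mog, 4.25 for Mobp, 3.28 for Opalin, 1.23 for Hapln2 and 1.22 for Mal.

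The 4 Day3 controls differed among themselves in these genes. For 6 of the 8 (Mog, Mobp, Mal, Apod, Trf and Hapln2) the lowest and the highest control mean were those of NC siRNA #2 and NC siRNA #1, whereas Opalin ran from NC siRNA #1 to mock and Aspa from mock to non-treated. Between mock and non-treated cells, by limma 0 of the 7 genes were called between them, 2 had an unadjusted p under 0.05 (Mobp and Opalin), and over all 11650 genes tested 1 gene (0.00858%) was called. Mog had 37.7 and 35.0 FPKM in mock cells, Mobp had 20.6 and 20.4 FPKM and Opalin had 52.2 and 49.0 FPKM. The mock minus non-treated difference was -0.11 ± 0.11 SE for Mog and 0.30 ± 0.13 SE for Mobp (adjusted p = 0.602 and 0.285). The mock libraries of Mobp and Opalin were above both non-treated ones.

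Between the 2 non-targeting siRNAs, 5 of the 7 genes were 2-fold or more lower with NC siRNA #2 than with NC siRNA #1 and none was 2-fold higher, in a comparison in which 2.36% of all genes tested were 2-fold lower and 1.68% 2-fold higher. This is the contrast on which the genes were chosen, and nothing is read from that count. Mobp, the basic protein, had 103 and 101 FPKM with NC siRNA #1 against 5.05 and 5.93 FPKM with NC siRNA #2, an 18.5-fold ratio of the means. Mog had 64.4 and 67.2 FPKM against 5.23 and 5.45 FPKM (12.3-fold). In both genes NC siRNA #1 was above and NC siRNA #2 below every non-treated and mock library.

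The 3 other genes of this kind had the same order of control means, with non-treated and mock between the siRNAs. Trf had 333 and 324 FPKM with NC siRNA #1 and 66.9 and 68.3 FPKM with NC siRNA #2 (4.86-fold), with non-treated and mock cells at 73.1 to 90.5 FPKM. Apod had 23.8 and 23.4 FPKM against 0.872 and 1.06 FPKM (24.4-fold), with non-treated and mock cells at 2.16 to 2.76 FPKM. Hapln2 had 5.63 and 6.08 FPKM against 0.342 and 0.742 FPKM (10.8-fold), the lower values resting on 13 and 10 fragments.

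Opalin did not share this order. Mal did, by less than 2-fold on the log2(FPKM + 1) scale (-0.59), and its NC siRNA #1 libraries overlapped those of mock cells. Opalin had 20.02 and 24.24 FPKM with NC siRNA #1 and 38.7 and 37.2 FPKM with NC siRNA #2, so the siRNA with the highest Mog and Mobp had the lowest Opalin of the Day3 controls. Mal had 1.73 and 1.40 FPKM against 0.506 and 0.933 FPKM. Aspa was at 0.033 to 0.0992 FPKM in these 4 libraries, from 1 or 2 fragments each.

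Other values moved with these ones. The 6 neuronal markers summed to 269.3 to 276.5 FPKM with NC siRNA #1, to 120 to 128 FPKM with NC siRNA #2 and to 48.2 to 103 FPKM in non-treated and mock cells, nearly all of it Tubb3, and the part of these cells in the differences was not tested. The neuronal marker Stmn2 was at or under 0.1 FPKM in those groups. The 6 astrocyte markers ran the other way, at 90.0 to 96.5 FPKM with NC siRNA #1 and 145 to 157 FPKM with NC siRNA #2. The 6 premyelinating markers summed to 1253 to 1288 FPKM and 1752 to 1964 FPKM, and the 6 precursor markers to 444 to 446 FPKM and 564.5 to 576 FPKM. Of the premyelinating markers, NC siRNA #2 differed from NC siRNA #1 by 0.76 for Bcas1 and 0.82 for Itpr2 on the log2(FPKM + 1) scale. The other differences were 0.22 for Gpr17, 0.07 for Tcf7l2, 0.05 for Bmp4 and -0.19 for Enpp6. The shallow library was replicate 2 of NC siRNA #2. Its Mog and Mobp levels were close to those of replicate 1, which had a depth like the other libraries.

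With Secisbp2l knocked down, Mog and Mobp fell and Mal rose against the mean of non-treated and mock cells, the controls that did not choose the genes. These were 2 of the 7 genes lower and 1 higher, where 4.76% of all 11650 genes tested were called lower and 4.14% higher. The median difference was -0.85 for the 7 genes and 0.17 over all genes. Non-treated and mock cells received no siRNA, so this comparison does not separate the knockdown from receiving an siRNA. From the same mean, NC siRNA #2 differed by -2.61 for Mog, -1.58 for Mobp and -0.38 for Mal, with no test. NC siRNA #1 differed from it by 0.79, 2.41 and 0.20. Against the mean of all 4 Day3 controls, 3 of the 7 were past both thresholds and lower (Mog, Mobp and Hapln2) and 1 was higher (Mal), where 4.08% of all genes were called lower and 3.12% higher. As the NC siRNA libraries chose the genes, that count and the differences from the mean of the 4 controls below are a description with no p. Their SE covers the spread between libraries of a group and not that between the controls, which for Mog and Mobp was 12.3-fold and 18.5-fold from the lowest to the highest mean, so each control is also given apart.

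Mog had 3.73 and 3.94 FPKM in siSbp2l, from 129 and 146 fragments, below all 8 control libraries, of which the lowest had 5.23 FPKM. Its difference from the mean of non-treated and mock cells was -3.00 ± 0.10 SE on the log2(FPKM + 1) scale (adjusted p = 3.05e-08), and from the mean of the 4 controls -2.55 ± 0.09 SE, or -2.38 without the non-treated group. Against non-treated cells the difference was -3.06 ± 0.11 SE and against mock -2.95 ± 0.11 SE (adjusted p = 1.06e-07 and 1.37e-07). Against NC siRNA #1 it was -3.79 and against NC siRNA #2 -0.39, given with no test because those libraries chose the gene. The size of the Mog decrease thus depended on which control was taken, and its direction did not.

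Mobp followed the same order. It had 3.83 and 3.52 FPKM in siSbp2l, below the lowest control library at 5.05 FPKM, and differed from the mean of non-treated and mock cells by -2.05 ± 0.11 SE (adjusted p = 6.13e-07). From the mean of the 4 controls it differed by -2.26 ± 0.10 SE, or -2.38 without the non-treated group. The difference was -1.90 ± 0.13 SE from non-treated cells and -2.20 ± 0.13 SE from mock (adjusted p = 3.05e-06 and 1.72e-06). It was -4.46 from NC siRNA #1 and -0.47 from NC siRNA #2.

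Hapln2 had 0.384 and 0.247 FPKM in siSbp2l, that is 16 and 11 fragments, and its libraries overlapped those of NC siRNA #2. Its difference from the mean of non-treated and mock cells was -0.85 ± 0.13 SE (adjusted p = 0.000442), under 2-fold. From the mean of the 4 controls it was -1.07 ± 0.12 SE, or -1.15 without the non-treated group, and -0.998 without replicate 2 of siSbp2l. Trf had 59.3 and 60.7 FPKM in siSbp2l, below all 8 control libraries, the lowest at 66.9 FPKM. It differed from the mean of non-treated and mock cells by -0.50 ± 0.09 SE (adjusted p = 0.00141), under 2-fold. From the mean of the 4 controls it was -0.90 ± 0.09 SE, past 2-fold without the non-treated group (-1.06) and under the median-ratio and upper-quartile scalings (-1.07 and -1.03).

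Mal went the other way. It had 3.91 and 4.70 FPKM in siSbp2l against 0.506 to 1.73 FPKM in the 8 control libraries, so the groups did not overlap. It differed from the mean of non-treated and mock cells by 1.25 ± 0.16 SE (adjusted p = 0.000157), and from the mean of the 4 controls by 1.29 ± 0.15 SE, or 1.28 without the non-treated group. It was higher than every control taken apart, by 1.32 ± 0.19 SE from non-treated, 1.17 ± 0.19 SE from mock (adjusted p = 0.000311 and 0.000832), 1.05 from NC siRNA #1 and 1.63 from NC siRNA #2. Opalin had 21.5 and 25.2 FPKM (difference from the mean of non-treated and mock cells -0.94 ± 0.12 SE, adjusted p = 0.00012; from the mean of the 4 controls -0.62 ± 0.11 SE), under 2-fold in both comparisons and overlapping the NC siRNA #1 libraries. Against mock alone Opalin was lower by more than 2-fold (-1.09 ± 0.14 SE, adjusted p = 0.000169).

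Apod had 4.21 and 4.85 FPKM in siSbp2l, between NC siRNA #1 above and the other 3 controls below. It differed from the mean of non-treated and mock cells by 0.70 ± 0.10 SE (adjusted p = 0.000346), under 2-fold, from the mean of the 4 controls by 0.18 ± 0.10 SE and from NC siRNA #1 by -2.16, so no direction is given for it. Aspa had 0 and 0.0300 FPKM, from 0 and 1 fragments. In siSbp2l the neuronal markers summed to 200.4 to 201.5 FPKM and the astrocyte markers to 102 to 110 FPKM. The precursor markers summed to 641 to 671 FPKM and the premyelinating markers to 943 to 973 FPKM. In non-treated and mock cells these sums were 48.2 to 103, 120 to 158, 584 to 719 and 2270 to 2520 FPKM. Against the mean of those cells 2 of the 6 precursor markers were called higher and 1 lower (all genes: 4.14% and 4.76%). Pdgfra was among those higher (1.18 ± 0.09 SE, adjusted p = 4.27e-06 by limma). The part of these cells in the differences was not tested.

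**Figure D2:**
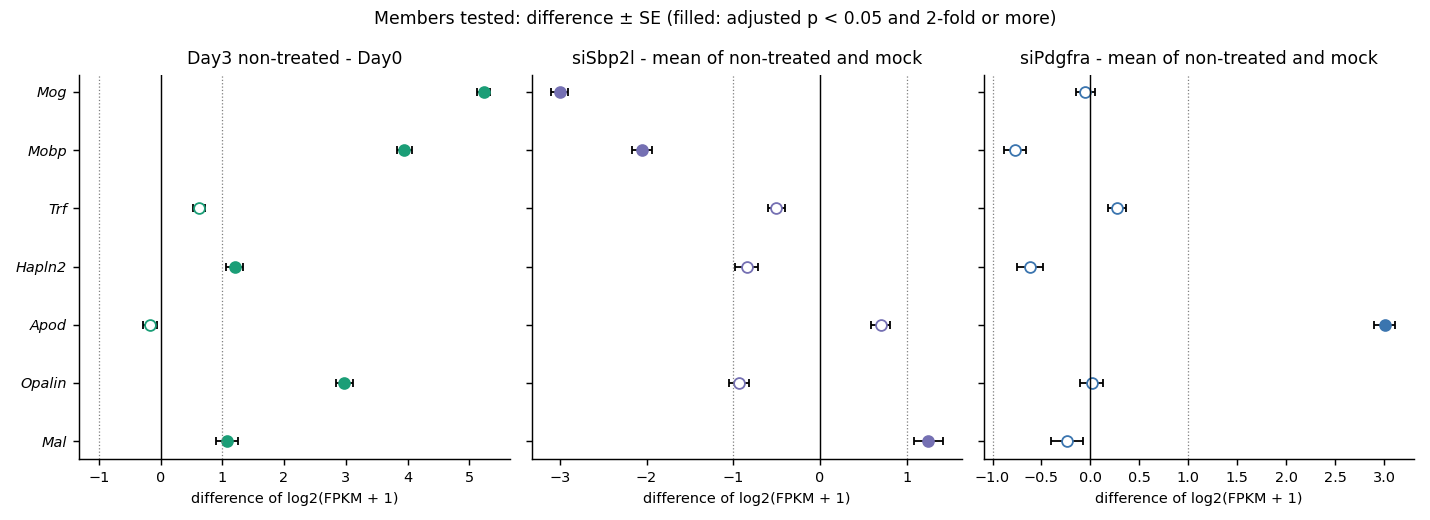
Difference of log2(FPKM + 1) ± SE (horizontal axes) for the 7 genes tested: Day3 non-treated minus Day0, siSbp2l minus the mean of non-treated and mock, and siPdgfra minus that mean; filled points were called and dotted lines mark 2-fold. Mog and Mobp rose with differentiation and were lower in siSbp2l than in cells given no siRNA. Apod was the gene called in siPdgfra against those cells.

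With Pdgfra knocked down, limma called 1 of the 7 genes higher (Apod) and 0 lower against the mean of non-treated and mock cells. At an adjusted p under 0.05 alone, 2 of the 7 were lower and 2 higher, Apod among the latter. Over all genes tested 5.15% were called higher and 4.42% lower, and the median difference was -0.05 for the 7 genes and 0.09 over all genes. With all 4 controls averaged, again a description, the counts were also 1 higher and 0 lower, where 3.97% of all genes were called higher and 4.03% lower. Apod had 26.1 and 26.6 FPKM, above all 8 control libraries, of which the highest had 23.8 FPKM. Its difference from the mean of non-treated and mock cells was 3.01 ± 0.10 SE (adjusted p = 4.61e-08), and from the mean of the 4 controls 2.49 ± 0.10 SE. It was 3.03 ± 0.12 SE from non-treated and 2.99 ± 0.12 SE from mock (adjusted p = 1.81e-07 and 2.35e-07), 3.80 from NC siRNA #2 and 0.15 from NC siRNA #1. The non-targeting NC siRNA #1 itself differed from the mean of non-treated and mock cells by 2.85 for Apod, with no test. NC siRNA #2 differed from that mean by -0.79.

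Mog did not pass the test between siPdgfra and non-treated or mock cells. It had 39.6 and 33.4 FPKM, overlapping both the non-treated and the mock libraries, with differences of -0.11 ± 0.11 SE and 0.00 ± 0.11 SE (adjusted p = 0.443 and 0.99). Its difference from the mean of the 4 controls, 0.40 ± 0.09 SE, had the opposite sign from that with non-treated and mock cells together, -0.05 ± 0.10 SE. Mobp had 8.91 and 11.9 FPKM, below the non-treated and mock libraries and above those of NC siRNA #2. Its difference from the mean of non-treated and mock cells was -0.78 ± 0.11 SE (adjusted p = 0.000287), under 2-fold. From the mean of the 4 controls it was -0.98 ± 0.10 SE, and -1.10 without the non-treated group.

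Hapln2 had 0.568 and 0.511 FPKM in siPdgfra (difference from the mean of non-treated and mock cells -0.62 ± 0.13 SE, adjusted p = 0.00299; from the mean of the 4 controls -0.84 ± 0.12 SE), within the range of NC siRNA #2. Trf had 100 and 107 FPKM, above the non-treated and mock libraries and far below NC siRNA #1, and its difference from the mean of the controls (-0.13 ± 0.09 SE) changed sign against non-treated and mock cells together (0.27 ± 0.09 SE, adjusted p = 0.0335). Opalin had 49.9 and 42.2 FPKM and Mal 1.04 and 0.738 FPKM, with differences from non-treated and mock cells of 0.01 ± 0.12 SE and -0.24 ± 0.16 SE (adjusted p = 0.926 and 0.242), both inside the range of the controls. Aspa had its highest values here, at 0.365 and 0.260 FPKM from 12 and 8 fragments, against 1 to 5 fragments in each control library. The astrocyte markers summed to 41.3 to 42.1 FPKM in siPdgfra against 90.0 to 158 FPKM in the controls, and the neuronal markers to 236 to 240 FPKM. The precursor markers, Pdgfra itself among them, summed to 292 to 327 FPKM and the premyelinating markers to 1075 to 1215 FPKM. The sums in non-treated and mock cells are given above with those of siSbp2l. The part of these cells was not tested.

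**Figure D3:**
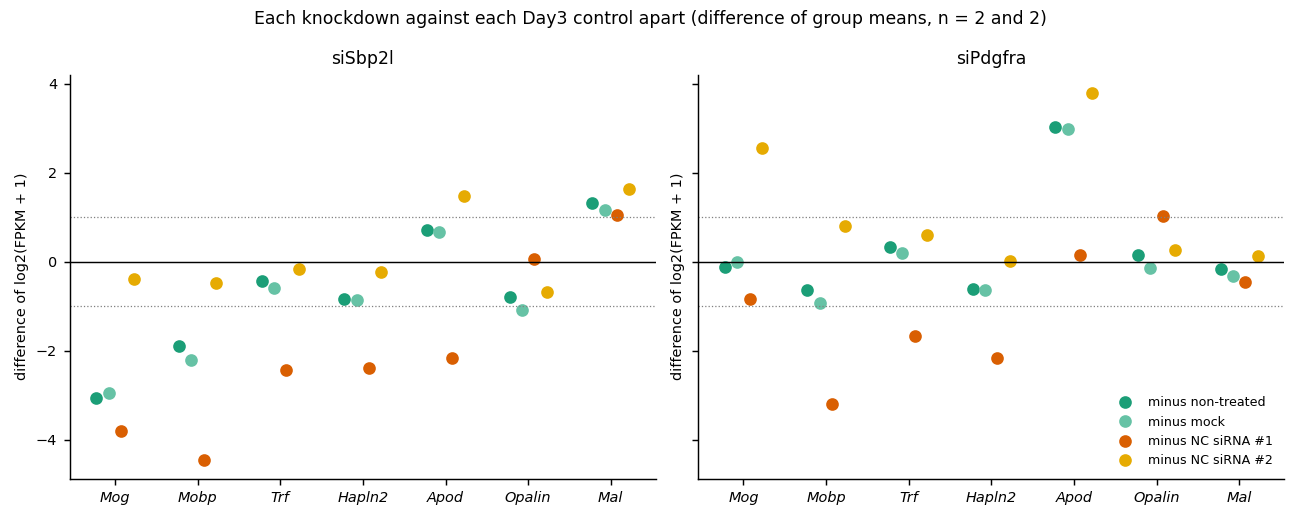
Difference of log2(FPKM + 1) of siSbp2l (left) and siPdgfra (right) from each Day3 control apart (vertical axes; colours give the control), for the 7 genes tested; dotted lines mark 2-fold. Under siSbp2l, Mog ran from -3.79 against NC siRNA #1 to -0.39 against NC siRNA #2, whereas Mal lay between 1.05 and 1.63 against all 4 controls.

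The difference between the knockdowns uses no control library, although the spread behind its SE was estimated over all 12 Day3 libraries. Of the 7 genes, 3 were lower in siSbp2l than in siPdgfra (Mog, Apod and Mobp) and 1 was higher (Mal), where 6.73% of all genes tested were lower and 6.94% higher, with a median of -0.95 for the 7 genes and 0.06 over all genes. The difference was -2.95 ± 0.11 SE for Mog (adjusted p = 8.91e-08), -2.31 ± 0.12 SE for Apod (adjusted p = 4.63e-07) and -1.28 ± 0.13 SE for Mobp (adjusted p = 2.74e-05). Mal was higher by 1.49 ± 0.19 SE (adjusted p = 0.000122). Opalin (-0.95 ± 0.14 SE, adjusted p = 0.000265) and Trf (-0.78 ± 0.11 SE, adjusted p = 0.000215) were lower by less than 2-fold, and Hapln2 differed by -0.23 ± 0.15 SE (adjusted p = 0.229).

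Across the groups the genes took different orders. For Mog the group means rose from Day0 through siSbp2l and NC siRNA #2 to mock, siPdgfra and non-treated, which overlapped as neighbours, and then to NC siRNA #1. The Mobp order was Day0, siSbp2l, NC siRNA #2, siPdgfra, non-treated, mock and NC siRNA #1, with no overlap between neighbours. Trf began with the same 3 groups as Mobp, followed by non-treated and mock, which overlapped, then siPdgfra and NC siRNA #1. Over the 12 Day3 libraries, the Pearson correlation of log2(FPKM + 1) was 0.97 between Mobp and Hapln2, 0.93 between Mobp and Trf, 0.84 between Mobp and Mog, and -0.21 between Mobp and Opalin. These 12 points are 6 groups of 2 and both NC siRNAs chose the genes, so the values are a description.

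The genes whose pattern was most like that of Mobp over those libraries, among the 11650 tested, were Spock2 (r = 0.98), Ppp2r2c (0.98), Nipa1 (0.98), Iqch (0.97), Myb (0.97), Hapln2 (0.97), Klhdc8a (0.96) and Pdlim2 (0.96). Pdlim2 had group means of 72.9 FPKM with NC siRNA #1, 9.52 FPKM with NC siRNA #2 and 3.41 FPKM with siSbp2l. For Mog they were Stx2 (r = 0.99), Rps6ka1 (0.98), Zfp57 (0.97), Lpar1 (0.97), Hdac11 (0.97), Tmem63a (0.96), Tmem117 (0.96) and Smad7 (0.96). Lpar1, a receptor for lysophosphatidic acid, had 0.0348 FPKM at Day0, 15.6 FPKM in non-treated cells, 5.40 FPKM with NC siRNA #2 and 4.30 FPKM with siSbp2l.

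The other 22 listed genes of the myelin sheath and of myelinating OLs, of which 21 passed the filter, were examined beside them. From Day0 to Day3 non-treated cells 17 rose and 1 fell, where 11.4% of all genes tested were called higher and 15.2% lower. The sheath genes Mag (7.99 ± 0.20 SE on the log2(FPKM + 1) scale) and Mbp (7.12 ± 0.19 SE), the tubulin-binding protein gene Tppp (6.50 ± 0.09 SE) and the deacetylase gene Sirt2 (5.39 ± 0.15 SE) rose, and Anln, which encodes a protein of the dividing cell's furrow, fell (-2.85 ± 0.14 SE). Under siSbp2l 10 of the 21 fell and 1 rose, with a median difference of -0.97 against 0.15 over all genes. Of all genes tested, 4.08% were called lower and 3.12% higher. The tetraspanin gene Tspan2 (-3.93 ± 0.14 SE, adjusted p = 8.23e-08), Tppp (-2.58 ± 0.08 SE, adjusted p = 4.21e-08) and Sirt2 (-2.51 ± 0.13 SE, adjusted p = 3.71e-07) were among those that fell most, and Pmp22 rose (1.18 ± 0.11 SE, adjusted p = 1.30e-05). Against non-treated and mock cells alone 10 fell and 0 were called higher by limma, with Pmp22 at 0.95 ± 0.11 SE. At an adjusted p under 0.05 alone, 16 were lower and 3 higher. In that comparison 4.76% of all genes tested were called lower and 4.14% higher. Tspan2 and Mog differed in how the controls lay. Tspan2 had a mean of 5.67 FPKM in siSbp2l and group means of 90.8 to 124 FPKM in the 4 controls, whereas the Mog control means ran from 5.34 to 65.8 FPKM.

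Under siPdgfra 3 of the 21 fell and 4 rose, with a median of -0.15 against 0.09 over all genes. Of all genes tested, 4.03% were called lower and 3.97% higher. Among those that fell were Mag (-2.38 ± 0.17 SE, adjusted p = 2.97e-06) and Tppp (-2.15 ± 0.08 SE, adjusted p = 7.48e-08). Those that rose were the connexin gene Gjb1 (1.87 ± 0.20 SE, adjusted p = 3.82e-05), Anln (1.55 ± 0.12 SE, adjusted p = 4.34e-06), the actin-severing gelsolin gene Gsn (1.22 ± 0.13 SE, adjusted p = 3.50e-05) and Ermn (1.07 ± 0.11 SE, adjusted p = 2.49e-05), which encodes a cytoskeletal protein of OLs. The direction for Ermn depended on the control: siPdgfra differed by 1.54 from non-treated cells and by -1.08 from NC siRNA #1, and without the non-treated group the difference was 0.91 and the call was lost. With NC siRNA #1 Anln, Gsn and Gjb1 were also above the mean of non-treated and mock cells (1.62, 0.95 and 0.50). The size of their rise under siPdgfra thus depended on the control, and the SE does not cover the spread between controls. Between the knockdowns 11 of the 21 were lower in siSbp2l, led by Tspan2 (-4.43), Gjb1 (-2.52) and Anln (-2.47), and Pmp22 was higher (2.07). Over all genes tested 6.73% were lower and 6.94% higher. Between the non-targeting siRNAs 7 of the 21 were 2-fold or more lower with NC siRNA #2 and 0 were 2-fold higher. Over all genes tested these shares were 2.36% and 1.68%, and no test was run. The differences were -3.50 for Ermn and -1.76 for Anln, whereas Gjb1 differed by -0.38.

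**Figure D4:**
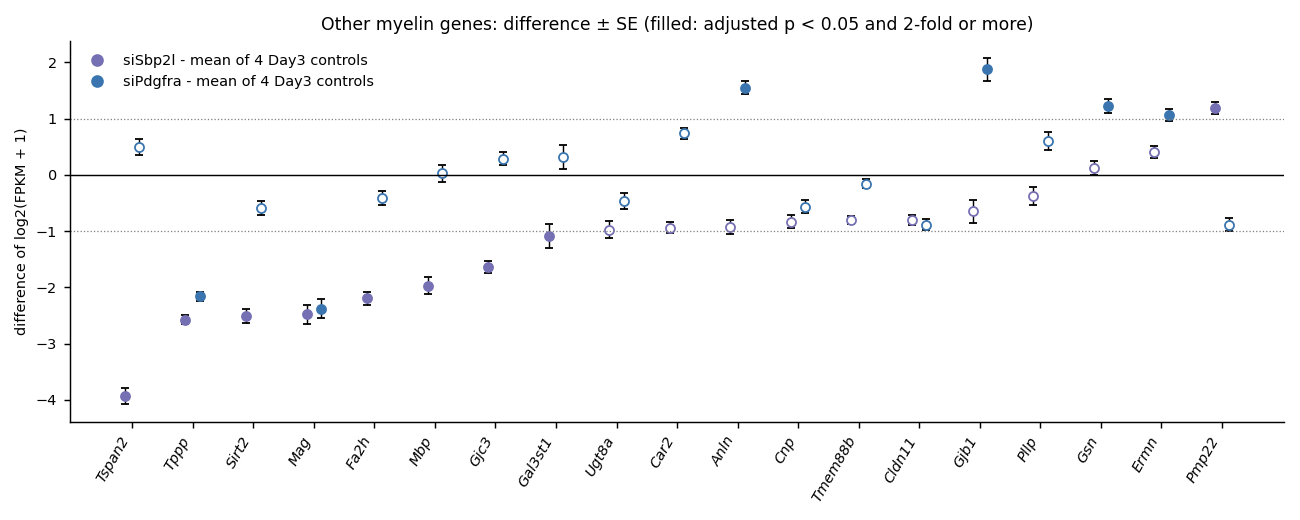
Difference of log2(FPKM + 1) ± SE from the mean of the 4 Day3 controls (vertical axis) for 19 of the 21 other myelin genes tested, in siSbp2l and siPdgfra; filled points were called and dotted lines mark 2-fold. Tspan2 was lowest under siSbp2l, and Tppp was called lower under both siRNAs.

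Partners of the 8 genes were taken as lists. Over all genes tested, 4.08% were called lower and 3.12% higher under siSbp2l, and 4.03% and 3.97% under siPdgfra. These shares were 15.2% and 11.4% from Day0 to Day3, and 6.73% and 6.94% between the knockdowns. The lists are short, so nothing about a list is read from 1 call. Of the 7 genes of iron handling, which act with Trf, 1 fell under siSbp2l and 0 were called under siPdgfra; it was the transferrin receptor gene Tfrc (-1.20 ± 0.15 SE, adjusted p = 0.000141), which had 11.1 FPKM in siSbp2l, 50.2 FPKM in siPdgfra and 22.3 to 32.5 FPKM in the control means. Tfrc was also lower in siSbp2l than in siPdgfra (-2.08 ± 0.20 SE). From Day0 to Day3 the siderophore receptor gene Slc22a17 rose (2.42 ± 0.25 SE). Of the perinodal matrix genes, which act with Hapln2, 5 of 8 were tested. Under siSbp2l the proteoglycan gene Vcan rose (1.43 ± 0.13 SE, adjusted p = 1.38e-05) and the link protein gene Hapln4 fell (-1.29 ± 0.12 SE, adjusted p = 1.28e-05), and under siPdgfra the proteoglycan gene Bcan fell (-1.68 ± 0.17 SE, adjusted p = 2.23e-05). From Day0 to Day3 Bcan (1.66) and Tnr (1.09) rose and Hapln4 (-1.19) fell, but with mock in place of non-treated cells the Hapln4 difference was -0.54 and the call was lost. Between the knockdowns Bcan was higher (1.14) and Hapln4 lower (-1.83) in siSbp2l.

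Of the lipocalins and lipid-binding partners of Apod, 4 of 5 were tested. The shares of all genes called are those given above with the iron handling list. Ptgds, a lipocalin that makes prostaglandin D, fell under siSbp2l (-1.83 ± 0.18 SE, adjusted p = 2.00e-05) and Apoe, the main brain apolipoprotein gene, rose (1.22 ± 0.17 SE, adjusted p = 0.000244), a call lost against non-treated and mock cells alone (0.84). Under siPdgfra Apoe fell (-1.37 ± 0.17 SE, adjusted p = 0.000112), opposite to Apod. From Day0 to Day3 Ptgds (7.52), Scarb2 (2.77) and Apoe (1.91) rose, whereas Apod did not pass the test. Between the knockdowns Apoe was higher (2.59) and Ptgds lower (-1.56) in siSbp2l. Of the MAL family and raft genes 4 of 7 were tested, and 3 rose from Day0 to Day3 (Flot1 1.30, Pllp 1.11 and Cmtm5 1.03). By limma 0 were called in either knockdown or between them, as differences stayed under 2-fold. At an adjusted p under 0.05 alone, 1 was lower under siSbp2l, and 2 were lower and 2 higher under siPdgfra. Between the knockdowns 2 were lower and 1 higher in siSbp2l. Of the genes that make or use N-acetylaspartate and acetate 4 of 6 were tested, and by limma 0 were called in these 4 comparisons. At an adjusted p under 0.05 alone, 2 were lower and 2 higher under siPdgfra, and 1 was higher under siSbp2l. From Day0 to Day3, and again between the knockdowns, 1 was lower and 1 higher.

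Regulators of the myelin programme were listed as 12 symbols, of which 9 were tested. Over all genes tested, 15.2% were called lower and 11.4% higher from Day0 to Day3. Under siSbp2l these shares were 4.08% and 3.12%, under siPdgfra 4.03% and 3.97%, and between the knockdowns 6.73% and 6.94%. From Day0 to Day3 5 rose and 2 fell: Gm98, the older symbol of the myelin regulatory factor gene (4.59 ± 0.16 SE), Tcf7l2 (2.69 ± 0.09 SE), Zfp536 (2.57 ± 0.09 SE) and Sox8 (1.47 ± 0.14 SE) rose most, and Olig1 (-1.44 ± 0.23 SE) and Olig2 (-1.12 ± 0.12 SE) fell. Under siSbp2l 1 fell, Gm98 (-1.15 ± 0.13 SE, adjusted p = 4.85e-05), and under siPdgfra 1 fell, Tcf7l2 (-1.04 ± 0.07 SE, adjusted p = 1.64e-06), a call lost without the non-treated group. The Gm98 level was 87.4 FPKM in siSbp2l, 158 FPKM in siPdgfra, 160 FPKM with NC siRNA #2 and 250 FPKM with NC siRNA #1. Between the knockdowns Zfp488 was lower in siSbp2l (-1.10 ± 0.10 SE, adjusted p = 1.25e-05).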

How the data were processed

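RNA was taken from cultured mouse OPCs and OLs in 7 groups of 2. Libraries were made with a stranded mRNA kit, and per the labels the build was mm10. The authors processed paired-end reads with OmicSoft ArrayStudio (aligner and counting settings are not given in the sources used here) and deposited FPKM values, 1 column per library, in a table named as counts. As these are not counts, no count model was run, and the precision per library was judged from the depth recovered from the low values. A further deposited table holds the authors' own comparisons of siSbp2l with each control (estimates, fold changes and p-values), which were not used, and gene annotation, which was.

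Differences of log2(FPKM + 1) came from limma 3.58.1 (R 4.3.3), using trended, robust moderation, over the 12 Day3 libraries (11650 genes with at least 1 FPKM in 2 libraries) or all 14 (11874 genes). Other steps used Python. The code was tested on simulated data. The pseudocount of 1 shrinks the differences of low genes, and FPKM makes each level relative to all other genes. Each knockdown was set against all 4 Day3 controls averaged. Since 2 of these groups chose the 8 genes, p-values for the 8 are given against non-treated and mock cells. Replicate counts differed beyond sampling noise in every pair. The genes and lists were chosen with earlier results of these data known. Genes named beside the 8 members are the targets, up to 4 called genes in each direction with the largest change in each list and comparison, and the 8 genes most correlated with Mobp and with Mog. Intervals were not computed for fragment numbers, which carry counting error.

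Alternatives were other pseudocounts, no filter, median-ratio and upper-quartile scaling, a replicate block, other control sets, limma without trend and robust moderation, and leaving out each library. Some genes that the naming rule would take are counted in their list and are not reported here by name.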

Additional observations from a re-analysis of the deposited data

How the results depend on the processing

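For the knockdowns these values refer to the mean of the 4 controls. Counts of genes called kept within 1.5 times of the reported ones under most alternatives, and 169 of 182 recomputed counts did so. Beside the 7 genes, the 182 take in the other myelin genes, the untested NC siRNA counts and mock against non-treated. A count of 0 that stayed at 0 was scored as kept. With a pseudocount of 5 the genes called higher went from 5 to 3 between Day0 and Day3 and from 1 to 0 (Mal) for siSbp2l, against the controls and against siPdgfra alike, and the other myelin genes called higher from 1 to 0 under siSbp2l and from 4 to 2 under siPdgfra; a larger pseudocount shrinks genes near 1 FPKM by construction. Genes called lower under siPdgfra went from 0 to 2 with a pseudocount of 0.1 (Mobp and Hapln2), and 2 were past both thresholds with the NC siRNA groups alone as control, a description since those libraries chose the genes, and to 1 (Mobp) under either scaling or without the non-treated group, an alternative chosen after seeing the data. Other myelin genes called lower from Day0 to Day3 went from 1 to 2 with a pseudocount of 0.1. Leaving out each library gave 0 to 1 genes lower under siPdgfra (1 without replicate 1 of NC siRNA #2 or replicate 2 of siPdgfra), 2 to 3 lower under siSbp2l, 3 to 4 lower between the knockdowns and 4 to 5 higher from Day0 to Day3; the lone library left in a group is then assumed to vary like the other groups. Signs turned for Apod under siSbp2l (-0.0470 with a pseudocount of 5, -0.33 with the NC siRNA groups alone), for Mog (-0.0523) and Trf (0.27) under siPdgfra with non-treated and mock alone, and between mock and non-treated, leaving out a library, for Apod (-0.0845 to 0.1635), Hapln2 (-0.12 to 0.1892), Mal (-0.0840 to 0.3924) and Trf (-0.0098 to 0.2958). Where no construction explains a change, the cause was not tested. Scaling moved the median of all genes by up to -0.15 (siSbp2l against the controls) and 0.12 (Day3 against Day0). Same-numbered libraries were not treated as pairs in the main fits. Their deviations from group means correlated at -0.38 to 0.47 over 21 pairs of groups, 4 of them over 0.1. These correlations do not settle whether same-numbered libraries shared a source. With the replicate block the counts stayed at 5 higher from Day0 to Day3, 3 lower and 1 higher under siSbp2l, and 0 lower and 1 higher under siPdgfra. Hapln2, Mal and Aspa rest on few fragments, which limits what their differences can show.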
